A study of Mus musculus with 18 samples.

Results

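RT-RamDA libraries made with not-so-random primers and oligo(dT), called NSRdT here, were set against bulk libraries of the same cell line. The members were the 3 NSRdT and 3 bulk libraries, 6 of 18 in all, taken by their labels for primer and starting amount. RNA came from 5G6GR mouse embryonic stem (ES) cells grown without feeders on gelatin with serum, LIF, puromycin and blasticidin, and was purified before use. NSRdT libraries started from 10 pg of diluted total RNA. They were reverse transcribed with not-so-random (NSR) and oligo(dT) primers, treated with RNase and made into libraries with the DNA SMART ChIP-Seq Kit and 17 PCR cycles. Bulk libraries started from 200 ng of total RNA and were made with the KAPA RNA HyperPrep Kit with RiboErase and 7 cycles. Input, primers, kit, removal of ribosomal RNA (rRNA) and PCR all differed between the groups, so their parts cannot be told apart. Nothing in the labels says that libraries came from separate cultures, so p-values measure only the spread between libraries, which may be technical.

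RT-RamDA copies an RNA template repeatedly during reverse transcription, as cDNA strands are nicked, displaced and made again. NSR primers are short primers from which sequences that match rRNA were left out, and oligo(dT) anneals to poly(A) tails. Bulk total RNA-seq with RiboErase instead removes rRNA by hybridization and RNase H before reverse transcription. Most mRNAs end in a poly(A) tail, but replication-dependent histone mRNAs end in a conserved stem-loop. Many small structured RNAs also have no tail.

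Estimated counts, summed per gene, totalled 8315580, 5333302 and 8271708 in the NSRdT libraries and 10234388, 9875168 and 9942967 in bulk. ES cell markers (7 genes) summed to 2975, 3127 and 3035 CPM (counts scaled to the library total) in NSRdT, against 3416, 2749 and 3253 in bulk. CPM are scaled by edgeR's trimmed mean of M values (TMM) throughout unless stated otherwise. Bulk replicate 2 stood apart. Markers of primitive endoderm, the extraembryonic layer beside the epiblast (12 genes), summed to 709, 771 and 806 CPM in NSRdT and to 788, 7134 and 693 in bulk. The basement membrane gene Lama1 had 353, 438 and 397 CPM in NSRdT, against 394, 2364 and 366 in bulk, and Col4a1 had 36.4, 29.9 and 84.2 CPM, against 105, 2055 and 77.7. Of 11 tested primitive endoderm genes none was called, and their median log2 fold change was -2.34, or 0.322 without bulk replicate 2. Fibroblast markers (8 genes, mostly Fn1) summed to 1190 to 1421 CPM in NSRdT and 1146 to 1452 in bulk, with Col3a1 at 0 in all 6 libraries. Trophectoderm, neuroectoderm and mesendoderm markers each summed to under 100 CPM in every library. Of the tested genes of these 4 lists, 3, 4, 5 and 1, none was called.

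Sequences are shown here for histone mRNAs and small RNAs, with values given below. Histone mRNA stem-loops were searched as a stem of 6 required base pairs, GGNNCT on the 5′ side and AGNNCC on the 3′ side, around a loop of TTTN, where N is any base. The search covered each gene's most abundant transcript in its sense direction. The histone sites below, from GENCODE transcripts on GRCm38, are examples with large and small differences and include the 1 replacement histone that holds the motif. Capitals mark the stem and loop. They lie at chr13:23551286-23551311 (minus strand, Hist1h4f), chr13:23761885-23761910 (minus, Hist1h3a), chr13:23571838-23571863 (plus, Hist1h2bg) and chr9:44335235-44335260 (plus, H2afx), each within a single exon.
Hist1h4f: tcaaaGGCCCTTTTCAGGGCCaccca
Hist1h3a: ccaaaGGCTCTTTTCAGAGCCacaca
Hist1h2bg: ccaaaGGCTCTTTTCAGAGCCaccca
H2afx: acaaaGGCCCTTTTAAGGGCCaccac
Small RNAs are shown by the U3 snoRNA Rnu3a (chr10:40258467-40258680, plus), which had no count in NSRdT, and by the first 300 bases of the RNase P RNA Rpph1 (chr14:50807468-50807767, minus). Neither has a capital, since no stretch was singled out.
Rnu3a: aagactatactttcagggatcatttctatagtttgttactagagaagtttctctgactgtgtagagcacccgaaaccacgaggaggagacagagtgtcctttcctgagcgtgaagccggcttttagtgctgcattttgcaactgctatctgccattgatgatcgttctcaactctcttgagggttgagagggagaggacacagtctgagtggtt
Rpph1: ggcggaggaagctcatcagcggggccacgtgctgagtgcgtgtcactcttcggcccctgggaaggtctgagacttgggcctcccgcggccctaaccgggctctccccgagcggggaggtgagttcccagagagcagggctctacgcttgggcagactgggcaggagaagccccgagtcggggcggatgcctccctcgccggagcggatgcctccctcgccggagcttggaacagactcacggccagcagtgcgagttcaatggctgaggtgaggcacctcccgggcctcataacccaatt

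NSRdT libraries held more rRNA and mitochondrial rRNA and less of most structured small RNA than bulk. Summed by the biotype of each transcript, 51.0%, 51.6% and 50.8% of estimated counts were protein-coding in NSRdT, against 69.2%, 69.0% and 68.1% in bulk. Transcripts of the Mt_rRNA biotype took 12.0% ± 0.492 (SD, n = 3) in NSRdT and 0.0187% ± 0.00232 in bulk, and those of the rRNA biotype 10.4% ± 0.471 and 0.00269% ± 0.00137. These biotypes miss rRNA loci labelled otherwise, such as Gm42418, a lincRNA by label. By gene, rRNA loci with mt-Rnr1 and mt-Rnr2 held 35.79% ± 0.572 of counts in NSRdT and 10.36% ± 0.254 in bulk. The groups did not overlap for any of 19 biotypes. Exact permutation tests (two-sided, 3 against 3) gave p = 0.1 and adjusted p = 0.1 for each, the smallest p this design allows. Ribozyme transcripts took 0.0857% ± 0.00796 in NSRdT and 1.07% ± 0.0938 in bulk, snoRNAs 0.0299% ± 0.00268 and 0.146% ± 0.00757, and scaRNAs 0.00242% ± 0.000487 and 0.0579% ± 0.0044. Part of this is set by the denominator. With rRNA-annotated and mitochondrial genes left out, protein-coding transcripts made up 78.7% ± 0.156 in NSRdT and 76.1% ± 0.614 in bulk, a difference of the other sign. The protein-coding gene Lars2, with 95390 ± 3326 CPM in NSRdT and 17.2 ± 4.28 in bulk, stayed in. Whether the other sign holds without Lars2 was not tested. With the same genes left out, the NSRdT shares were 0.291 of the bulk share for snoRNAs, 0.114 for ribozymes and 0.0596 for scaRNAs. They were 0.974 for snRNAs and 17.3 for transcripts annotated as miRNAs. The miRNA share includes Mir6236, which averaged 9578 CPM in NSRdT and 1.13 in bulk. Over 96 tested miRNA genes the median log2 fold change was -0.106.

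**Figure D1:**
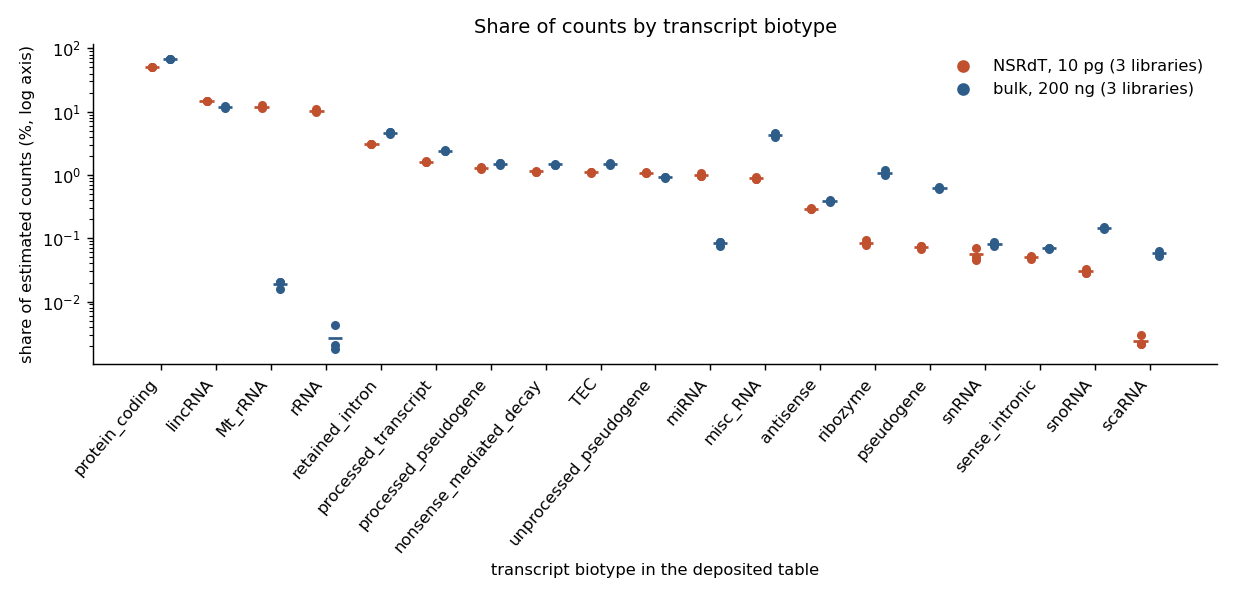
Share of estimated counts by transcript biotype in each library (percent, log axis), NSRdT at the left and bulk at the right of each pair, with the mean as a bar. Mt_rRNA and rRNA stand far above bulk in NSRdT, while ribozyme, snoRNA and scaRNA shares stand below it.

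Individual genes were tested with edgeR's quasi-likelihood test on the 6 libraries, with Benjamini-Hochberg adjustment over 15553 genes. 419 genes (2.69%) were higher and 402 (2.58%) lower in NSRdT at an adjusted p under 0.05, and 2940 genes had an unadjusted p under 0.05. The number depended on the libraries. It was 114 to 146 higher and 111 to 146 lower without any 1 bulk library, and 700 to 757 higher and 896 to 1015 lower without any 1 NSRdT library. Every adjusted p for a gene below is from this test, and values after ± are SEs for log2 fold changes and SDs for CPM (n = 3 in each group). Scaling by library totals alone moved the median log2 fold change of all genes to -0.752 from -0.0361 under TMM, so changes are relative to that median. In simulated data the same test called 11% of genes with a log2 change of 1 and 56% of those with 2. A gene not called may therefore still differ.

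Replication-dependent histone mRNAs, which package newly made DNA, were lower in NSRdT. Of 63 tested genes 44 were lower and 1 higher, and their median log2 fold change was -2.38, against -0.0361 for all genes. The H4 gene Hist1h4f had 5.25, 4.94 and 5.85 CPM in NSRdT, against 228, 213 and 251 in bulk (-5.42 ± 0.15, adjusted p = 6.22e-06). All 3 NSRdT libraries lay far below bulk, and so they did for the H3 gene Hist1h3a, with 3.09, 5.88 and 4.91 CPM in NSRdT and 122, 123 and 140 in bulk (-4.81 ± 0.25, adjusted p = 0.000134). The most abundant histone in bulk, Hist1h2bg, had 91.2, 89.3 and 81.3 CPM in NSRdT and 540, 509 and 502 in bulk (-2.56 ± 0.09, adjusted p = 2.22e-05). The linker histone Hist1h1c, named after its values were seen, averaged 91.5 ± 17.2 CPM in NSRdT and 368 ± 8.44 in bulk (-2.01 ± 0.15, adjusted p = 0.000576). Without 1 library the lower count ranged from 34 to 47.

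Histone genes share reads with near-identical copies (53 of the 63 had one by shared sequence), so single genes are uncertain and family sums are firmer. H4 mRNAs summed to 274 ± 45.1 CPM in NSRdT and 2724 ± 126 in bulk, a ratio of 0.101, the lowest of the 5 families. H3 summed to 314 ± 39.1 and 1606 ± 67.8 (ratio 0.195), H2A to 516 ± 29.7 and 1767 ± 46.6 (0.292), H1 to 714 ± 30.1 and 1682 ± 23.8 (0.425), and H2B to 1047 ± 30.6 and 2373 ± 73.3 (0.441). The groups did not overlap in any family. With near-identical genes summed, a choice made after seeing the data, 61 of 67 were lower and none higher, with a median of -1.74. Genes that are copies of each other then hold the same reads, as Hist1h2ad and Hist1h2ao do, so the 67 values are not independent. The 1 higher gene, Hist1h2bl (284, 265 and 265 CPM in NSRdT and 108, 106 and 111 in bulk, 1.32 ± 0.09), then had a log2 fold change of -1.06.

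The stem-loop motif was found in 38 of the 63 tested histones, of which 34 were lower and none higher, with a median of -2.89. Among the 25 without it 10 were lower and 1 higher, with a median of -0.925. Only annotated transcripts were searched, and some of these 25 are short, with 381 bases for Hist1h2bl and 312 for Hist1h4k. Whether they reach the end of the mRNA was not tested, so a gene without the motif here may still carry it. The motif occurred in 41 of 11643 tested protein-coding genes (0.352%), and 35 of these were lower. This count holds the same 38 histones, with their 34 lower genes, and H2afx, so it is not a separate result. The other carriers, Nova2 (-1.0) and Syncrip (0.51), were not called. Among 11 replacement histones, which are made outside S phase from polyadenylated mRNAs, 1 was lower and 10 were not called. The lower one was H2afx, the DNA damage histone, whose mRNA is known in both ended forms and which alone of the 11 held the motif. It had 80.7, 85.8 and 84.2 CPM in NSRdT, against 220, 205 and 237 in bulk (-1.40 ± 0.10, adjusted p = 0.000564). H2afz, the H2A.Z histone, had 628, 528 and 491 CPM in NSRdT and 487, 422 and 480 in bulk (0.24 ± 0.12, adjusted p = 0.324), or -0.471 by library totals. H3f3a, an H3.3 gene, had 441, 425 and 355 CPM and 350, 263 and 312 (0.40 ± 0.14, adjusted p = 0.167), or -0.312 by library totals. Both stood above every bulk library without passing the test.

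Small RNAs of RNA processing and transport were also low in NSRdT. Of 25 tested small RNAs without poly(A) 11 were lower and 4 higher, with a median of -1.72, and the 4 higher were near-identical U3 entries of low abundance. None was higher without any 1 bulk library, nor with all 18 libraries in the fit, where 6 were lower. With copies summed 18 of 28 were lower and 1 higher, but entries that are copies of each other are then counted with the same reads. Rpph1, the RNA of the tRNA-trimming enzyme RNase P, had 373, 288 and 333 CPM in NSRdT, against 4878, 4995 and 6192 in bulk (-4.01 ± 0.14, adjusted p = 2.17e-05). Rmrp, the RNA of RNase MRP, had 834, 700 and 744 CPM and 2940, 2999 and 2917 (-1.96 ± 0.08, adjusted p = 4.06e-05). Rn7sk, which holds the elongation factor P-TEFb inactive, also fell, with 5176, 4785 and 5133 CPM in NSRdT and 10510, 10510 and 10860 in bulk (-1.08 ± 0.05, adjusted p = 6.42e-05). Rn7s1 and Rn7s2, the signal recognition particle RNAs, have equal values and together summed to 6056 ± 291 CPM in NSRdT and 22970 ± 2106 in bulk. The telomerase RNA Terc, named after its values were seen, had 7.26, 6.82 and 5.38 CPM in NSRdT and 40.99, 33.6 and 41.6 in bulk (-2.58 ± 0.25, adjusted p = 0.00196), a call lost with all 18 libraries in the fit (adjusted p = 0.205). No NSRdT library overlapped bulk for any of these RNAs.

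U3 snoRNA, which acts in 18S rRNA processing, is spread over 10 near-identical entries. Their sum was 25.3 ± 4.42 CPM in NSRdT and 223 ± 12.3 in bulk, 8.81-fold higher in bulk. Rnu3a alone had no count in NSRdT and 88.9, 56.9 and 54.9 CPM in bulk, at least 122-fold lower with 3 counts per NSRdT library as the floor. Of 53 tested snoRNAs and scaRNAs, guides of rRNA and snRNA modification, 10 were lower and none higher (median -1.03). The lower count was 5 without any 1 bulk library and 14 or 15 without any 1 NSRdT library. Scarna2 had 7.72, 9.17 and 5.22 CPM in NSRdT, against 239, 272 and 269 in bulk (-5.16 ± 0.22, adjusted p = 4.46e-05). Scarna10 had 16.1, 9.40 and 14.7 CPM and 157, 180 and 145, and Snora73a 12.0, 10.8 and 15.4 CPM and 121, 119 and 112. All NSRdT libraries lay below all bulk libraries for the 3 RNAs. Of 15 spliced host genes of snoRNAs 1 was higher (Snhg14) and none lower (median -0.22), against 2.69% and 2.58% over all genes. The call of Snhg14 was lost without any 1 bulk library (adjusted p = 0.145 to 0.187). The host gene Gas5 averaged 260 ± 43.8 CPM in NSRdT and 250 ± 5.23 in bulk (0.06 ± 0.13, adjusted p = 0.881).

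**Figure D2:**
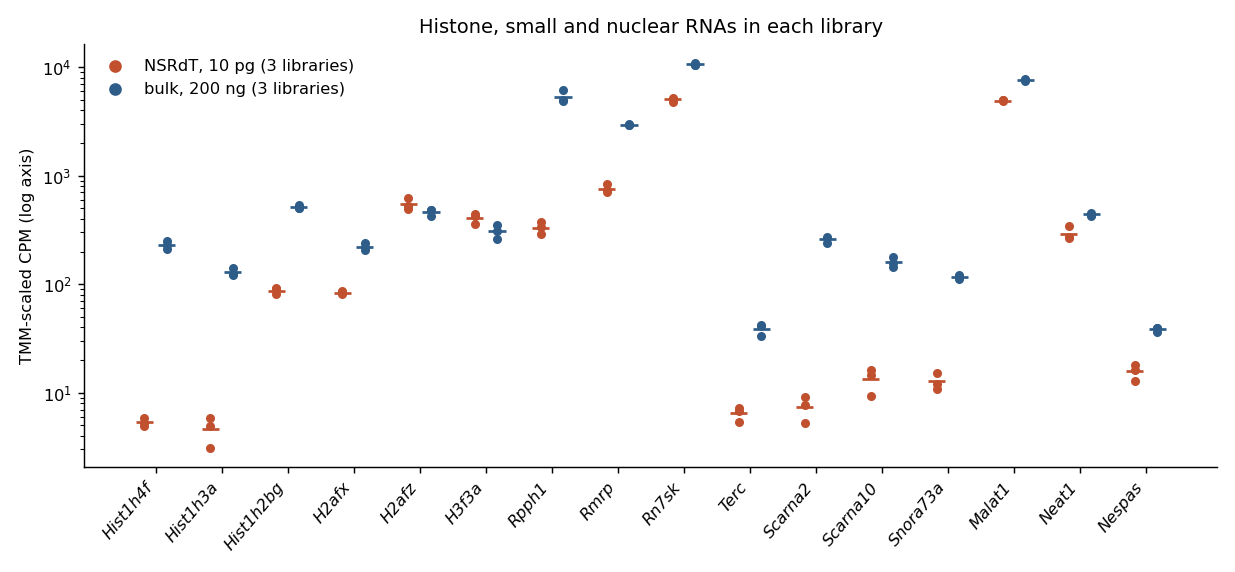
TMM-scaled CPM (log axis) of histone, small and nuclear RNAs in each library, NSRdT at the left and bulk at the right of each pair, with the mean as a bar. Rpph1 stands at 288 to 373 CPM in NSRdT and 4878 to 6192 in bulk, while H2afz and H3f3a stand near their bulk level.

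Nuclear long non-coding RNAs were mixed. Of 16 nuclear and imprinted long non-coding RNAs 1 was higher and 3 lower (median 0.0681), against 2.69% and 2.58% over all genes. Malat1, a nuclear speckle RNA that ends in a triple helix, had 4827, 4968 and 4970 CPM in NSRdT, against 7410, 7583 and 7722 in bulk (-0.62 ± 0.04, adjusted p = 0.000464), a call lost with all 18 libraries in the fit (adjusted p = 0.0562). Neat1, the scaffold of paraspeckles, averaged 293 ± 41.3 CPM in NSRdT and 440 ± 14.8 in bulk (-0.59 ± 0.11, adjusted p = 0.0382), a call lost without NSRdT replicate 1 or 3 or any 1 bulk library (adjusted p = 0.0523 to 0.179). Tug1, named after its values were seen, went the other way, with 213, 205 and 202 CPM in NSRdT and 147, 147 and 146 in bulk (0.49 ± 0.09, adjusted p = 0.0262). No gene of the list was higher without any 1 bulk library, by library totals or with all 18 libraries in the fit. The imprinted antisense RNA Nespas had 16.4, 12.9 and 18.04 CPM and 36.02, 39.8 and 39.3 (adjusted p = 0.0223), a call lost without any 1 bulk library (0.132 to 0.171).

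Loci listed as rRNA loci were mostly far above bulk in NSRdT, and so were Lars2 and Mir6236, which are not in that list. Of 4 tested rRNA loci 3 were higher and 1 lower. Rn18s-rs5, an 18S rRNA locus, had 139700, 124700 and 135900 CPM in NSRdT, against 4385, 4472 and 4167 in bulk (4.94 ± 0.06, adjusted p = 1.03e-07). Gm42418, which overlaps it on the opposite strand, had 121900, 119400 and 125200 CPM and 10490, 10950 and 10480, while its neighbour Gm26917 was lower, at 49410, 47770 and 49050 CPM in NSRdT and 67050, 62920 and 67080 in bulk (-0.43 ± 0.04, adjusted p = 0.000986). Lars2, the mitochondrial leucyl-tRNA synthetase gene, had 95520, 92000 and 98650 CPM in NSRdT and 15.4, 22.1 and 14.2 in bulk, and AA474408 1333, 1270 and 1473 CPM and 8.11, 8.53 and 9.94. These genes share a run of 41 bases on the same strand, and no rRNA reference was used here, so the origin of their reads was not tested. Mir6236, annotated as a miRNA hairpin, had 9948, 9072 and 9714 CPM in NSRdT and 0.306, 2.53 and 0.548 in bulk. Its mature RNA in RefSeq (GRCm38.p6, chr9:110281353-110281371, plus strand) is given with the seed in capitals. It is shown because Mir6236 stood far above bulk in NSRdT, and the origin of the Mir6236 reads was not tested.
mmu-miR-6236: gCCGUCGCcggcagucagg

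Mitochondrial RNAs split by class. Both mitochondrial rRNAs were higher in NSRdT. The small one, mt-Rnr1, had 64810, 64820 and 71510 CPM, against 11.1, 14.3 and 9.70 in bulk (12.48 ± 0.20, adjusted p = 3.58e-07), and the large one, mt-Rnr2, had 84470, 84040 and 93060 CPM, against 146, 142 and 115 (9.34 ± 0.13, adjusted p = 2.33e-07). Of 13 mitochondrial mRNAs, which encode respiratory chain subunits, 11 were higher and 1 lower (median 1.00). The cytochrome c oxidase subunit mt-Co1 had 9942, 10280 and 10300 CPM in NSRdT and 7428, 6640 and 6913 in bulk (0.54 ± 0.05, adjusted p = 0.00226), or -0.175 by library totals. mt-Nd1, a complex I subunit, had 1931, 1945 and 1906 CPM and 1789, 1596 and 1723 (0.18 ± 0.06, adjusted p = 0.183), or -0.538 by library totals. By library totals the list had 6 higher and 3 lower. Near-identical nuclear copies exist for 7 of these genes. With copies summed the list had 12 higher and none lower and ranged from 0.179 to 2.55. mt-Co2 then moved to 0.55 from 5.36 ± 0.10, and mt-Nd3, the 1 lower gene (44.8, 46.6 and 34.7 CPM in NSRdT and 188, 204 and 194 in bulk, -2.22 ± 0.14), turned to 1.10.

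Of 12 tested mitochondrial tRNAs 2 were higher, or 1 without any 1 bulk library, and 1 lower (median 0.768). The highest and the lowest are shown whole, from GRCm38 chrM:6870-6938 and chrM:5260-5326 on the minus strand, with no stretch singled out.
mt-Ts1: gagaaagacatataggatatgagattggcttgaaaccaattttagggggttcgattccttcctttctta
mt-Ty: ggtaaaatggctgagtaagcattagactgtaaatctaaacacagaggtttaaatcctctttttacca
mt-Ts1, a serine tRNA, had 90.2, 87.5 and 88.9 CPM in NSRdT, against 21.7, 21.3 and 20.03 in bulk (2.08 ± 0.13, adjusted p = 0.000337). Its end overlaps the last bases of mt-Co1, which lies on the other strand. The strand of counting is not given in the sources used here, so reads of either strand over mt-Ts1 cannot be told apart. mt-Ty, the tyrosine tRNA, had 3.71, 1.65 and 3.16 CPM in NSRdT and 25.2, 20.9 and 23.3 in bulk (-3.00 ± 0.38, adjusted p = 0.00731), a call lost without bulk replicate 1 or 3 (adjusted p = 0.0767 and 0.0716).

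Among protein-coding genes the difference from bulk varied with base composition. Over 11643 tested genes the log2 fold change had a rank correlation of -0.376 with the GC content of the most abundant transcript, and -0.557 over the 4083 whose mean log2 CPM was at least 5. Both are given across genes, which share the same 6 libraries, as a description. In the well-counted genes the median was 0.572 below 40% GC (286 genes, 72 higher, 3 lower) and 0.318 at 40 to 45%. It was 0.106 at 45 to 50%, -0.101 at 50 to 55% and -0.224 at 55 to 60%, and it reached -0.39 at 60% or more (97 genes, 2 higher, 23 lower). Over all tested protein-coding genes the lowest bin had a median of 0.486 and the highest -0.453. Leaving out histone, mitochondrial and ribosomal protein genes moved these to 0.481 and -0.422. All 9 pairs of 1 NSRdT and 1 bulk library had a rank correlation of -0.464 to -0.378 and a slope of -0.497 to -0.396 log2 units per 10 points of GC. Pairs within NSRdT had rank correlations of 0.00708 to 0.0181 and slopes of 0.011 to 0.032. Pairs within bulk had -0.416 (replicate 1 over 3), -0.162 (1 over 2) and -0.0589 (2 over 3), with slopes of -0.069 to -0.008, so a bulk pair reached the rank correlation of NSRdT over bulk with a smaller slope.

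Length gave a weaker trend, with rank correlations of 0.113 over all tested protein-coding genes and 0.219 in the well-counted ones. Given GC content these were 0.037 and 0.12, while GC given length kept -0.362 and -0.534. In the well-counted genes the median log2 fold change was -0.528 below 500 bases (71 genes, 36 lower), a bin that holds most histones, and 0.148 from 8000 bases up. A coding stretch of 120 bases, chosen after seeing the data for having nearly the GC content of the whole transcript, shows the range for 4 named genes, with G and C in capitals. They lie at chr16:64791850-64791969 (minus, Zfp654), chr5:65666172-65666291 (minus, Pds5a), chr17:35509103-35509222 (plus, Pou5f1) and chr7:126797391-126797510 (minus, Aldoa) of GRCm38, each in 1 exon.
Zfp654: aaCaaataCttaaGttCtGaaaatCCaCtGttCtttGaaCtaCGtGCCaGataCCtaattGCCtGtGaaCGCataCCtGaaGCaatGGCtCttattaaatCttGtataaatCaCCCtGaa
Pds5a: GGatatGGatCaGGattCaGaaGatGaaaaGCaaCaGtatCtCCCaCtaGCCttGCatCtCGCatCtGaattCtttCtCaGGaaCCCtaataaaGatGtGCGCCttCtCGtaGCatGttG
Pou5f1: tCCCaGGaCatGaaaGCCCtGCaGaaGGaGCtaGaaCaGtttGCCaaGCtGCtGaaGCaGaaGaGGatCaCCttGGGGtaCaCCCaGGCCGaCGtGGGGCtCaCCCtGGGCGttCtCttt
Aldoa: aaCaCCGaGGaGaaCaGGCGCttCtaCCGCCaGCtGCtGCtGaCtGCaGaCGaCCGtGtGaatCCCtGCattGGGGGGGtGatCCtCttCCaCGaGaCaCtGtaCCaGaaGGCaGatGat
Their whole transcripts have 36.9%, 44.1%, 57.6% and 57.3% GC. Zfp654, a zinc finger gene, had 167, 130 and 134 CPM in NSRdT, against 54.1, 43.9 and 50.2 in bulk (1.54 ± 0.15, adjusted p = 0.00226). The cohesin regulator Pds5a had 392, 385 and 375 CPM and 284, 258 and 275 (0.50 ± 0.08, adjusted p = 0.0198), or -0.221 by library totals. The glycolytic aldolase gene Aldoa had 526, 498 and 480 CPM and 682, 655 and 673 (-0.42 ± 0.07, adjusted p = 0.0259). The groups did not overlap in these genes, but the calls of Pds5a and Aldoa were lost without any 1 bulk library (adjusted p = 0.0702 to 0.186).

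**Figure D3:**
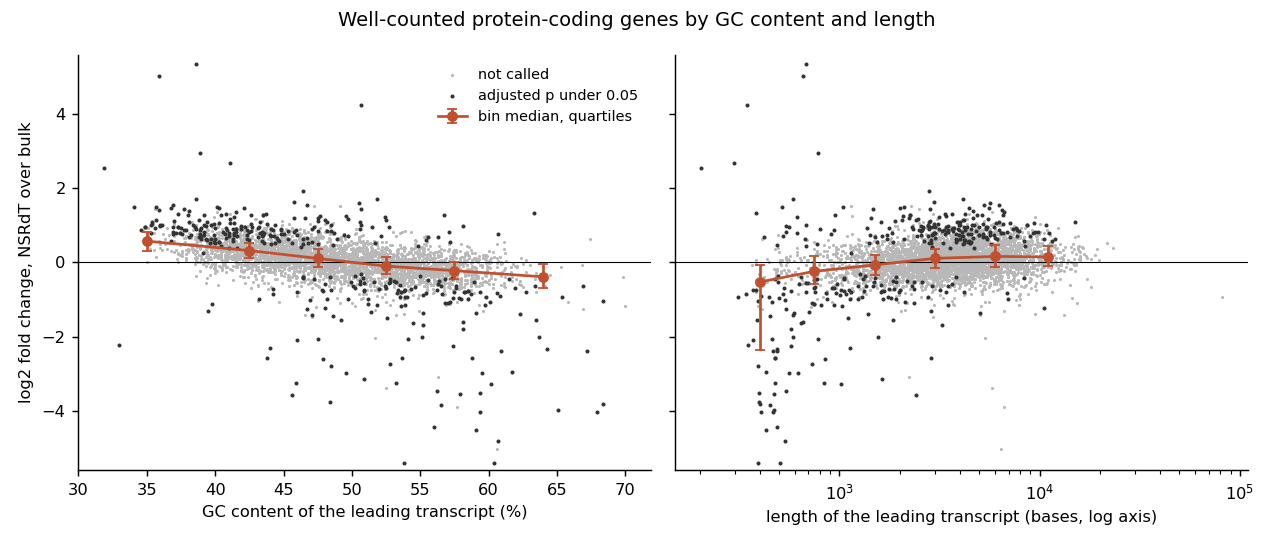
Log2 fold change of NSRdT over bulk against GC content (left) and length (right, log axis) of the most abundant transcript for 4083 well-counted protein-coding genes, dark where called, with bin medians and quartiles. 11 genes lie beyond the axis limit of 5.6 and are not drawn there. Medians run from 0.572 below 40% GC to -0.39 at 60% or more.

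Of 22 pluripotency genes 1 was higher and 2 lower (Lin28a and Pou5f1), with a median of -0.00172, against 2.69% higher and 2.58% lower over all genes. Without any 1 bulk library none was higher and at most 1 lower. With all 6 libraries none of 18 naive pluripotency factors was called (median 0.0277). Pou5f1, the Oct4 gene, had 234, 249 and 227 CPM in NSRdT, against 395, 311 and 393 in bulk (-0.63 ± 0.12, adjusted p = 0.0325). The NSRdT libraries lay below bulk, but the call was lost without NSRdT replicate 1 or 3 or bulk replicate 1 or 3 (adjusted p = 0.0505 to 0.203). Sox2, its partner factor, had 370, 431 and 500 CPM in NSRdT and 319, 227 and 321 in bulk (adjusted p = 0.115), and Nanog had 430, 396 and 319 CPM and 369, 279 and 366 (adjusted p = 0.649). Both were below 0 by library totals, at -0.131 for Sox2 and -0.54 for Nanog. Lin28a, an RNA-binding regulator of let-7, averaged 168 ± 10.8 CPM in NSRdT and 259 ± 6.25 in bulk (-0.63 ± 0.09, adjusted p = 0.0124), lost without any 1 bulk library (0.0638 to 0.0972).

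Of 26 Polycomb genes, which repress developmental genes, 2 were higher (Ezh2 and Rybp) and 1 lower (Cbx7), against 2.69% and 2.58% of all genes, and none was called without any 1 bulk library. Ezh2, the H3K27 methyltransferase, averaged 155 ± 8.01 CPM in NSRdT and 109 ± 2.59 in bulk (0.51 ± 0.10, adjusted p = 0.0359), or -0.208 by library totals, and Cbx7 averaged 69.8 ± 11.9 and 140 ± 16.1 CPM (-1.0 ± 0.16, adjusted p = 0.0195). Without any 1 bulk library their adjusted p was 0.0515 to 0.232. Cohesin and CTCF, the loop-forming proteins, had 1 of 13 higher (Pds5a) at a median of 0.389, replication licensing 1 of 22 (Orc1), mitosis and cyclins 1 of 26 (Cenpf), and TET and DNMT enzymes none of 9 (median -0.315). The calls of Orc1 and Cenpf were also lost without any 1 bulk library (0.157 to 0.231). Of 332 zinc finger protein genes 8 were higher and 2 lower (median 0.135), which was 1 higher and none lower without any 1 bulk library, and 15 to 20 higher and 11 to 18 lower without any 1 NSRdT library. Of 12 immediate early and stress genes none was called (median -0.474).

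Ribosomal protein and energy metabolism genes had medians below that of all genes. Calls in each list of this paragraph stand beside 2.69% higher and 2.58% lower over all genes. Of 79 cytoplasmic ribosomal protein genes 33 were lower and 11 higher, with a median of -0.309. After subtracting the median of protein-coding genes in the same bin of GC and length it was 0.0329. Those bins include the ribosomal protein genes themselves, so part of this move is by construction. The same step left -1.82 for replication-dependent histones and 0.102 for cohesin and CTCF. Copies touch 68 of the 79 ribosomal protein genes, and with copies summed 35 were lower and 6 higher (from -1.44 to 0.795). Without any 1 bulk library 19 to 26 were lower and 6 or 7 higher. Single genes moved with this choice. Rps12 had 289, 316 and 343 CPM in NSRdT and none in bulk, but 796 ± 12.4 CPM in NSRdT and 688 ± 32 in bulk with copies summed. Rpsa, the laminin receptor ribosomal protein, averaged 895 ± 33.8 CPM in NSRdT and 1269 ± 45.6 in bulk (-0.50 ± 0.07, adjusted p = 0.00795), or -0.18 with copies, where the call was lost (adjusted p = 0.189), as it was without bulk replicate 1 or 3 (0.0739 and 0.088). Rpl4 averaged 1297 ± 40.99 CPM and 1290 ± 53.7 (0.01 ± 0.06, adjusted p = 0.972). Nuclear oxidative phosphorylation genes had 5 of 78 lower and none higher (median -0.273), or 0 to 2 lower without any 1 bulk library and 9 to 11 without any 1 NSRdT library. One was the ATP synthase gene Atp5b, with 622, 628 and 641 CPM in NSRdT and 945, 887 and 902 in bulk (-0.53 ± 0.07, adjusted p = 0.00626), lost without bulk replicate 1 or 3 (0.0617 and 0.0731). Glycolysis had 3 of 20 lower (median -0.287), or 1 or 2 without any 1 bulk library. Translation factors had 1 higher and 3 lower of 35 (median -0.0202), or none and 1 or 2 without any 1 bulk library. One of the lower was the elongation factor Eef1g (515, 508 and 483 CPM in NSRdT and 854, 813 and 818 in bulk, -0.72 ± 0.07, adjusted p = 0.00196). None was called of 77 mitochondrial ribosomal proteins (median -0.103), 37 proteasome subunits (-0.193), 8 TRiC subunits (0.0837) or 10 SR splicing factors (-0.00275), and Actb, the cytoskeletal actin gene, averaged 1148 ± 84.1 CPM and 1292 ± 67.7 (adjusted p = 0.315).

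NSRdT libraries reached fewer genes than bulk, mainly below 10 CPM. Thinned to the same 5333302 counts, 11978 ± 15.2 protein-coding genes had a count in NSRdT and 14446 ± 140 in bulk, and long non-coding genes numbered 3811 ± 61.1 and 5863 ± 106 (exact permutation tests, p = 0.1 each, the smallest possible). These totals include rRNA-annotated and mitochondrial genes, 38.8% of NSRdT counts and 12.8% of bulk counts. All detected genes numbered 18239 ± 55.6 in NSRdT and 23635 ± 304 in bulk. With those genes removed before thinning they numbered 18186 ± 55.4 and 22472 ± 248, a smaller gap. Of 7182 genes at 10 to 100 CPM in bulk 98.0% were counted in all 3 NSRdT libraries and 91.9% lay within 2-fold of bulk. At 1 to 10 CPM (6783 genes) these were 60.2% and 67.2%, and at 0.1 to 1 CPM (8366 genes) 12.2% and 38.7%. At 100 to 1000 CPM (1305 genes) they were 99.5% and 92.6%, and at 1000 CPM or more (42 genes) 97.6% and 69.0%. The median coefficient of variation between libraries was 0.321 in NSRdT and 0.0773 in bulk at 10 to 100 CPM, 0.133 and 0.0562 at 100 to 1000 CPM, and 0.866 and 0.17 at 1 to 10 CPM. Of genes seen in any library of a group, 56.2% were seen in all 3 NSRdT libraries and 73.5% in all 3 bulk libraries.

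**Figure D4:**
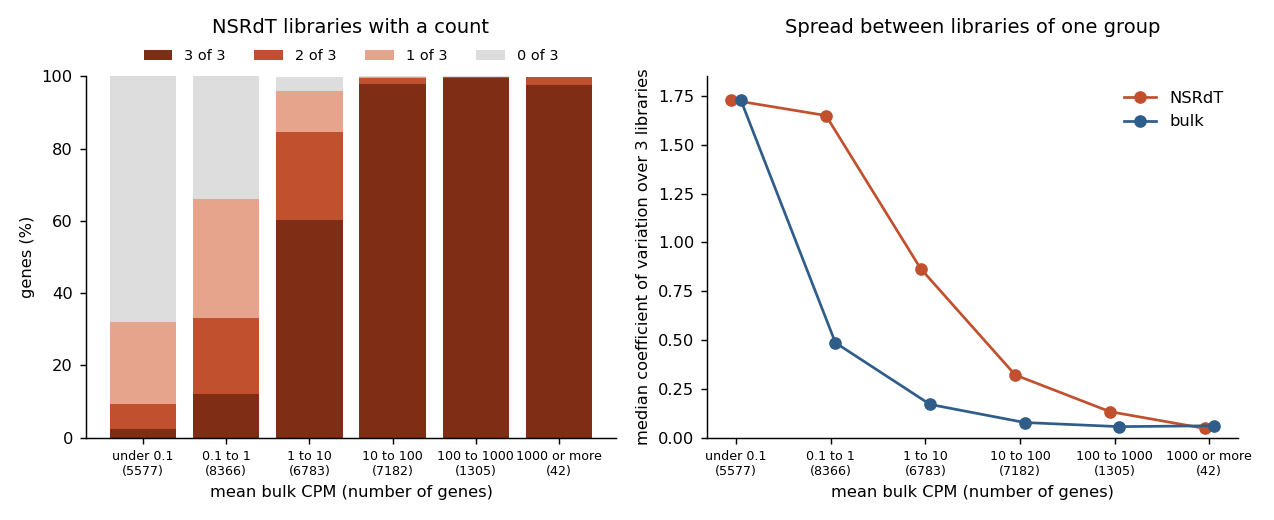
Left, percent of genes counted in 3, 2, 1 or 0 NSRdT libraries by mean CPM in bulk (number of genes in parentheses). Right, median coefficient of variation over 3 libraries in NSRdT and bulk. All 3 NSRdT libraries held 98.0% of genes at 10 to 100 CPM and 12.2% at 0.1 to 1 CPM.

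A few genes had no count in one group. 19 genes at 10 CPM or more in bulk had no count in NSRdT, among them Lrrtm2, Bmper and Hs3st1 (at least 22.9-, 24.3- and 27.5-fold lower by the 3-count floor per library), and 18 at 10 CPM or more in NSRdT had none in bulk. One of these was Tnf, the cytokine gene, with 81.8, 56.4 and 53.0 CPM in NSRdT and none in bulk (at least 273-fold higher, adjusted p = 0.000749). Another was Igkv1-110, an antibody light chain segment, with 17.8, 16.9 and 14.1 CPM and none (at least 69.6-fold, adjusted p = 0.00333). Genes of this paragraph were named after their values were seen. Only 4 genes (Tnf, Igkv1-110, Cd3g and Kera) had 5 or more counts in all 6 libraries with NSR primers and none in the other 12, against 0 genes for the 6 libraries with N6 primers.

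Other RT-RamDA libraries were compared with NSRdT in a fit of the 9 libraries with NSR alone, with random hexamers and oligo(dT) (N6dT) and with NSRdT, whose CPM are on their own TMM scale. The NSRdT libraries are the same ones as above. Against NSR alone 141 of 14296 genes (0.986%) were higher and 30 (0.21%) lower in NSRdT, or 93 to 109 and 17 to 28 without any 1 of the 9 libraries. Ribosomal protein genes were higher for 49 of 79 (median 0.841, against -0.0229 for all genes), and mt-Ts1 had 59.1, 57.4 and 57.9 CPM in NSRdT, against 0.132, 0 and 0.127 with NSR (adjusted p = 2.97e-06). Rpph1 and Rmrp were lower, with 217 ± 27.7 and 497 ± 44.95 CPM in NSRdT and 420 ± 78.8 and 869 ± 163 with NSR (adjusted p = 0.0168 and 0.0176). Against N6dT 7 genes (0.049%) were higher and 9 (0.063%) lower. Few calls do not show that groups are alike. In simulated data of this 9-library fit, NSRdT against NSR, 9% of log2 changes of 1 and 54% of 2 were called. Rn7sk averaged 3291 ± 133 CPM in NSRdT and 1873 ± 130 with N6dT (0.81 ± 0.08, adjusted p = 0.000761), and Rn18s-rs5 87280 ± 4981 and 196800 ± 17920 (-1.17 ± 0.07, adjusted p = 1.56e-05). The log2 fold change had rank correlations with GC content of 0.0115 against NSR and -0.0269 against N6dT, and length against NSR gave -0.208.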

How the data were processed

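Libraries from diluted or bulk total RNA of ES cells were measured by RNA sequencing. Per the file headers, the deposited table has 18 columns and names 115125 entries as GENCODE transcripts. Its unit is not stated, and the deposited values, many of them fractional, were read here to be estimated counts. The submitters' processing notes list bcl2fastq 2.16.0.10 and mm10. Which aligner and quantifier made the counts, and on which strand, is not given in the sources used here. Here 92 ERCC entries were left out, and the rest were summed into 47643 genes and rounded. edgeR 4.0.16 in R 4.3.3 tested genes (filterByExpr, TMM, quasi-likelihood, Benjamini-Hochberg, called at adjusted p under 0.05), after a test on simulated data. DESeq2 1.42.0 and limma 3.58.1 served as alternatives. Python 3.11.15, numpy 2.4.6, pandas 2.3.3, scipy 1.17.1 and matplotlib 3.10.9 gave the rest. Length and GC content are those of each gene's most abundant transcript in GENCODE vM21, found for 99.8% of tested protein-coding genes, and near-identical copies share at least 50% of 31-base words. Reads were amplified by PCR and carry no molecular identifiers. Members, gene lists and tests were chosen with earlier results of these data known. Genes named are the 15 highest and 15 lowest called genes without overlap at a mean log2 CPM of 5 or more, from each list 2 by abundance in bulk and 2 by smallest p, and fixed reference genes. Some genes of the rule are left unprinted, and 1 called gene is not reported here. Alternatives changed the scaling, filter, tool, libraries and handling of copies.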

Additional observations from a re-analysis of the deposited data

Results flagged for a closer look

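Signals lay in entries and libraries outside the comparison with bulk. The ERCC spike-in entries, which the labels do not mention and which were left out of all tests, held 0.516% of counts in NSRdT (mean of 3 libraries) and 1.01% in bulk, above the limit that a count of 0 allows. Of 92 entries 44, 42 and 43 were counted in NSRdT and 61, 69 and 65 in bulk. Over the 28 with 10 or more counts in all 6 libraries the median log2 ratio of shares, NSRdT over bulk, was -0.109 (quartiles -0.478 and 0.326). This is a median over single entries and not the ratio of the 0.516% and 1.01% above. In the libraries with NSR primers alone, Tnf averaged 88.75 CPM, Igkv1-110 10.24 CPM, Kera 2.619 CPM and Cd3g 1.509 CPM, while the libraries without NSR primers held no count of these genes. Their origin was not tested. With 3 libraries per group no single library could be tested for standing apart.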

How the results depend on the processing

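No paired analysis was possible because the labels give wells to RT-RamDA libraries and numbers to bulk libraries, with none shared. Against bulk, 419 higher and 402 lower genes became 179 and 3742 by library totals alone (571 calls shared), 1057 and 801 with DESeq2, 181 and 199 without a filter, 222 and 139 with all 18 libraries in the fit, and 205 lower with limma voom and a weight per group (319 higher). Leaving out 1 library gave 114 to 757 higher and 111 to 1015 lower. Against NSR the counts were 271 and 14 by library totals, 295 and 168 with DESeq2 and 127 lower without a filter, and 93 to 109 and 17 to 28 without 1 library. Against N6dT they were 75 higher by library totals, 21 and 38 with DESeq2 and 26 and 40 without a filter, and 5 to 8 and 8 to 10 without 1 library. The split of higher calls against bulk, 51.0%, was 4.57% by library totals and 61.5% with 18 libraries. The rank correlations over all tested protein-coding genes, 0.113 for length and -0.376 for GC, were 0.219 and -0.557 in well-counted genes, and over all tested genes without 1 library they ran from 0.0777 to 0.121 and from -0.381 to -0.313. The difference in detected genes without 1 library ran from -5528 to -5230. With rRNA-annotated and mitochondrial genes out of the denominator, differences in share turned to 2.6 points for protein_coding, -0.396 for lincRNA, 0.384 for processed_pseudogene, 0.178 for nonsense_mediated_decay, 0.11 for TEC, 0.0384 for pseudogene and 0.00181 for sense_intronic. Lars2, counted as protein-coding, stayed in this denominator. By library totals, log2 fold changes turned negative for Nanog (-0.54), Sox2 (-0.131), H2afz (-0.471), H3f3a (-0.312), Snhg14 (-0.156), mt-Co1 (-0.175), mt-Nd1 (-0.538), mt-Cytb (-0.458), Zfp706 (-0.134), Pds5a (-0.221), Wapl (-0.212), Ezh2 (-0.208), Orc1 (-0.0514), Tet1 (-0.292), Srsf3 (-0.34), Rpl4 (-0.709) and Gas5 (-0.655). With copies summed, Hist1h2bl (-1.06), mt-Nd3 (1.1), Rps27 (-0.731) and Gas5 (-0.00404) changed sign. Rpl4 and Gas5, near 0 throughout, also did so without a filter (-0.0835 and -0.0301), and Rpl4 with 18 libraries (-0.00854). Without 1 library Rpl4 ran from -0.0418 to 0.031, with -0.0226 and -0.0037 between, Gas5 from -0.0821 to 0.161 and Lama1 from -1.8 to 0.0436. With 18 libraries in the fit, calls were lost for Malat1 (adjusted p = 0.0562), Terc (0.205), Hist1h2bl (0.756) and mt-Ty (0.0569), and with limma voom for Rnu3a (0.0779) and mt-Ty (0.0622). Causes were not tested beyond what each alternative changes by construction. Of 74 named genes 20, 14 and 20 lost their call without bulk replicate 1, 2 and 3.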
